A study of Mus musculus with 20 samples.

Results

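Levels of messenger RNA in the mouse amygdala are described here. The genes considered are those called for a difference between stress and no-stress lineages that was unequal in 2 generations of descendants. They were chosen by a single contrast fitted to all 20 of the 20 libraries: the log2 difference between stress and no-stress lineage in the F2 generation, minus the same difference in the F1 generation. This value is called the interaction. A positive interaction means that the ratio of stress to no-stress lineage was higher in F2 than in F1, and a negative interaction that it was lower. Of 16727 genes tested, 421 (2.52%) were called, at an adjusted p below 0.05 in edgeR's quasi-likelihood test. They were 140 with a positive interaction (0.837%) and 281 with a negative interaction (1.68%). Of all genes tested, called or not, 49.4% had a positive sign. These shares are the background to the counts of every list below.

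All 20 animals were behaviourally naive C57B6 males, bred in house and sampled at postnatal day 84, and each gave 1 library from amygdala punches of both sides. The F1 stress group held 5 mice of the first generation after a chronic unpredictable stress procedure, and the F1 no-stress group held 5 mice of the same generation from a lineage without that procedure. The F2 stress and F2 no-stress groups held 5 mice each, 1 generation further on. No group was itself exposed to the procedure as far as the labels say. The labels name no sire, dam, litter or day of collection, so mice of a group may be siblings, and a difference between the family lines of a group cannot be told apart from an effect of lineage.

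As background, stress of a parent can reach offspring through the germ line, through the uterine environment and through maternal care, and F1 animals differ from F2 animals in which of these routes remain. The amygdala, a group of nuclei in the temporal forebrain, links sensory input to fear, anxiety and the hormonal stress response. Its principal cells are excitatory projection neurons in the basolateral part and inhibitory neurons in the central part, and the striatum, rich in medium spiny neurons, borders it. A contrast between generations asks whether a lineage difference persists, fades or turns in the next generation, and the level of each gene in all 4 groups is needed to read it.

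The libraries held between 13654890 and 13714805 counts, a spread of 0.439%, so the table does not show the original depth of each library. Markers of neurons (10 of 10 listed genes) and of amygdala and pallial excitatory neurons (15 of 15) were measured. The summed level of the latter overlapped among the groups, with means of 3318, 3189, 3636 and 3217 CPM (counts scaled to a common library total) in F1 no-stress, F1 stress, F2 no-stress and F2 stress. Markers of striatal medium spiny neurons were present in every library and ranged from 1080 to 9928 summed CPM, so these markers varied widely between mice. In such bulk tissue, fewer cells of a type and less RNA per cell cannot be told apart.

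The 421 called genes fell mainly into a pair of shapes when the 4 group means were put in order and divided at their widest gap. In 256 genes (60.8%), the F2 no-stress group stood alone, and it was the highest group in 209 of these and the lowest in 47. In 149 genes (35.4%), the groups divided crosswise, with F1 no-stress and F2 stress together on one side and F1 stress and F2 no-stress together on the other. Among all genes tested, 34.5% had F2 no-stress alone and 13.8% were crossed. The contrast itself sets the crosswise pairs against each other, so selection on the interaction raises the crossed share among called genes. The crossed genes were 87 in which F1 no-stress and F2 stress were high and 62 in which they were low. In 9 genes F2 stress stood alone, in 5 F1 no-stress and in 2 F1 stress, shapes held by 11.9%, 11.6% and 14.2% of all genes. The widest gap separated the lineages or the generations in 0 called genes (13.9% of all genes), shapes that selection on the interaction leaves little room for.

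The lineage difference had opposite signs in F1 and F2 in 420 of the 421 called genes, against 54.9% of all genes tested, a share that the contrast itself raises among the genes it picks. The median lineage difference of the 281 negative genes was 0.19 in F1 and −0.60 in F2 on the log2 scale. For the 140 positive genes it was −0.17 in F1 and 0.31 in F2. The F2 part was the larger in both sets. Tested alone in the same fit, the F1 lineage difference passed an adjusted p below 0.05 in 0 of the 421 genes. The F2 lineage difference passed in 363. Over all 16727 genes tested, the counts were 0 and 1324. The F1 signs are thus those of differences that did not pass by themselves. The median size of the interaction was 0.65 on the log2 scale, and 70 genes reached 2-fold, 69 of them negative.

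**Figure D1:**
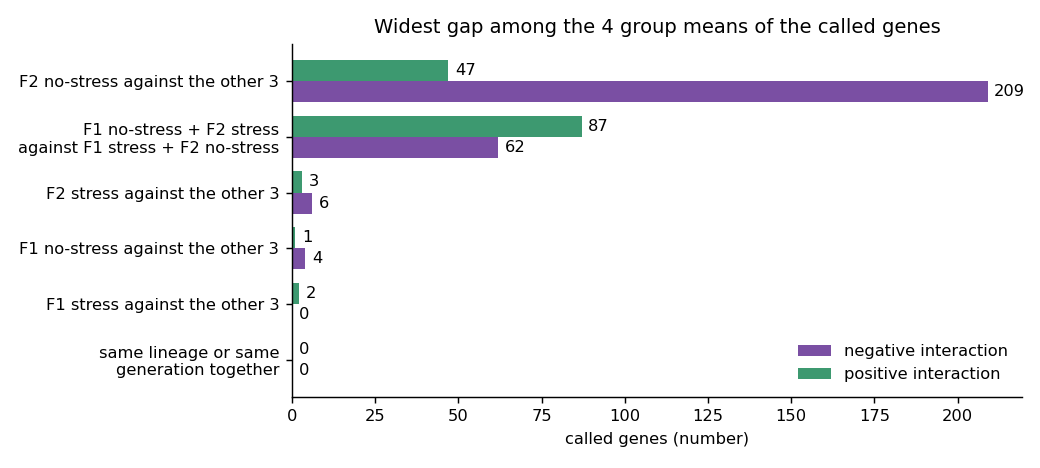
Number of called genes (x axis) by which of the 4 groups stood apart at the widest gap of the group means (y axis), for genes with a negative (purple) and a positive (green) interaction. F2 no-stress alone accounts for 209 negative and 47 positive genes, and the crosswise division for 62 and 87.

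The calls lay near the threshold. The smallest adjusted p was 0.0309, and 3551 genes had an unadjusted p below 0.05. With 1 library left out, 0 genes were called in 11 of 20 cases, with 2874 to 3437 genes at an unadjusted p below 0.05. Between 290 and 1509 were called in the other 9. All 421 genes kept their sign and an unadjusted p below 0.05 in each of the 20 cases. They were picked from these same libraries, and each such fit reused all but 1 of them, so that outcome was nearly fixed in advance. DESeq2 called 1240 genes, 581 positive and 659 negative, and 405 of the 421 were among them. The called genes also differed in base composition. The median GC content of the transcript was 57.5% in the negative genes, 43.6% in the positive genes and 49.4% in genes not called. When each library's own trend with GC content and transcript length was removed, 0 genes were called, the smallest adjusted p was 0.0922, and 2499 genes had an unadjusted p below 0.05. Of the 421 genes, 420 kept their sign in that fit, 346 had an unadjusted p below 0.05, and their interaction was a median of 0.627 times its plain value. Values with this correction are given below as corrected values.

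**Figure D2:**
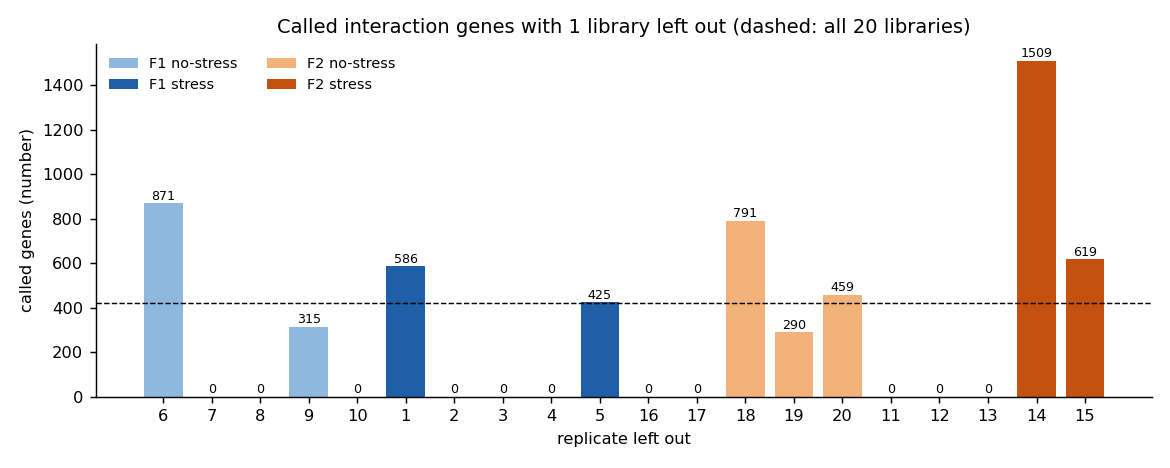
Number of called genes (y axis) after leaving out 1 library at a time (x axis, replicate number, coloured by group), with the count from all 20 libraries as a dashed line. The count is 0 in 11 cases and reaches 1509 without F2 stress replicate 14.

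Regulatory sequence is shown for a called gene of each direction whose promoter holds the cAMP response element (TGACGTCA, a palindrome that reads the same on both strands), the binding motif of the activity-regulated factor CREB. The letters come from RefSeq (build GRCm38.p6), cover 250 bases before to 50 bases after the annotated start, and the capitals mark the motif. Glod4 encodes a glyoxalase domain protein, and Zfr2 a zinc finger RNA-binding protein. Zfr2 is among the called genes with the smallest p, and Glod4 was chosen after its values were seen. The Zfr2 promoter lies at chr10:81232913-81233212 on the plus strand and has its motif 9 bases before the start. The Glod4 promoter lies at chr11:76243650-76243949 on the minus strand and has its motif 24 bases before the start.
Zfr2: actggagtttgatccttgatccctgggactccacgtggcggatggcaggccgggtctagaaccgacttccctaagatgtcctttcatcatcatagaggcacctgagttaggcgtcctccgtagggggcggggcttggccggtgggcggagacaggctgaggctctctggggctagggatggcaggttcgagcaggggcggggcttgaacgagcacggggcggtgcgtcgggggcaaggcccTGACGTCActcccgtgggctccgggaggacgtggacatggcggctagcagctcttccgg
Glod4: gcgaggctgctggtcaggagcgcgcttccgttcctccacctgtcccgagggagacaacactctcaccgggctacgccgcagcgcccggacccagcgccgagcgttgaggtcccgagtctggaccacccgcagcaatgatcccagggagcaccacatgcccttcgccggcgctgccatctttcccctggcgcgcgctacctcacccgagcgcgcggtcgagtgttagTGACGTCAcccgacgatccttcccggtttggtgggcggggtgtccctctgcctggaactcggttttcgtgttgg

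The element was found in 13 of 325 called genes with a promoter in the table, or 4%, against 3.19% of 11451 matched genes tested and 1.79% of all 32851 promoters. The TATA box (TATAAA, either strand) was in 4% of called, 7.07% of tested and 13.6% of all promoters. Only 77.2% of called genes were matched, below the 80% needed for a comparison, so these shares are a description and the comparison is void. Zfr2 (values here and below in order of replicate number) was at 36.1, 27.04, 23.9, 29.8 and 28.7 CPM in F1 no-stress, 30.2, 38.2, 37.3, 36.8 and 32.04 in F1 stress, 53.8, 61.7, 40.5, 44.5 and 48.2 in F2 no-stress and 25.7, 25.5, 27.97, 39.3 and 29.2 in F2 stress. All 5 F2 no-stress libraries were above the other 15. Glod4 was at 49.2, 58.5, 52.4, 47.1 and 47.6 CPM in F1 no-stress, 45.02, 43.8, 46.2, 44.1 and 47.99 in F1 stress, 40.1, 36.6, 45.02, 40.4 and 44.7 in F2 no-stress and 59.7, 47.8, 52.8, 51.4 and 49.2 in F2 stress. Here F2 no-stress lay below F1 no-stress and F2 stress without overlap. The interaction was −1.01 ± 0.19 in Zfr2 and 0.50 ± 0.11 in Glod4 (log2 ± SE), with adjusted p = 0.0309 and 0.0314 and corrected values of −0.54 and 0.55.

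Among genes with a negative interaction, the smallest p belonged to Recql4, which encodes a RecQ-family DNA helicase (ENSMUSG00000033762, chromosome 15 from 76703553 to 76710548, minus strand, GRCm38). Its level was low, at 0.929, 1.24, 0.981, 0.894 and 0.764 CPM in F1 no-stress, 2.19, 1.28, 1.29, 1.36 and 1.17 in F1 stress, 1.51, 1.85, 1.59, 2.31 and 1.95 in F2 no-stress and 0.784, 0.604, 0.861, 0.563 and 0.755 in F2 stress. The groups divided crosswise, and the lineages were apart in F2 and overlapped in F1. The interaction was −1.95 ± 0.31 (adjusted p = 0.0309; corrected value −1.59, adjusted p = 0.093). Wdr90, a gene for a WD-repeat protein of centrioles and cilia, had means of 12.4 ± 1.60, 15.4 ± 1.31, 19.8 ± 4.03 and 10.4 ± 2.26 CPM in F1 no-stress, F1 stress, F2 no-stress and F2 stress (mean ± SD, n = 5, the order kept below). Its F2 no-stress libraries were all above those of F1 no-stress and F2 stress, and the interaction was −1.23 ± 0.21 (corrected −0.79).

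Inha encodes the inhibin alpha subunit, a secreted antagonist of activin signalling (ENSMUSG00000032968, chromosome 1 from 75507077 to 75510366, plus strand, GRCm38). Its libraries were at 11.2, 8.46, 7.70, 10.6 and 9.17 CPM in F1 no-stress, 8.91, 11.7, 12.9, 11.6 and 10.1 in F1 stress, 21.9, 21.1, 12.8, 16 and 19.2 in F2 no-stress and 7.77, 8.31, 9.32, 11.1 and 9.14 in F2 stress. F2 no-stress was above F1 no-stress and F2 stress in every library and overlapped F1 stress by its lowest library. The interaction was −1.22 ± 0.21 (adjusted p = 0.0309; corrected −0.89, adjusted p = 0.118). It was the only one called of 14 tested genes for inhibins, activins and their receptors, 8 of which had a positive interaction. Over all genes tested, 2.52% were called, so 1 call in so short a list is a description only.

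Several genes of the cytoskeleton and its membrane links were called with a negative sign. Plec encodes plectin, a giant linker between intermediate filaments, actin and membranes (ENSMUSG00000022565, chromosome 15 from 76170974 to 76232574, minus strand, GRCm38). It stood at 97.2, 92.5, 80.9, 101 and 79.6 CPM in F1 no-stress, 107, 118, 105, 121 and 101 in F1 stress, 174, 184, 114, 121 and 129 in F2 no-stress and 56.9, 71.7, 76.02, 102 and 86.2 in F2 stress. The stress lineage lay above the no-stress lineage in F1, by a narrow margin, and below it in F2, with no overlap in either generation. The lineage difference was 0.29 in F1 and −0.88 in F2, and the interaction −1.17 ± 0.20 (adjusted p = 0.0309). After the correction it was −0.43 (adjusted p = 0.12).

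Of 14 spectrins, ankyrins and plakins, 2 were called negative (Plec and Sptbn4), 0 positive, and 13 had a negative sign. Over all genes tested, 1.68% were called negative, and 8460 of 16727 had a negative sign. Sptbn4, beta-IV spectrin of the axon initial segment, had means of 100.3 ± 17.1, 108 ± 12.6, 154 ± 35.4 and 83.1 ± 11.8 CPM. The list's median interaction was −0.33, and 0.00 after the correction, where all genes had −0.01 and 0.06. Of 31 myosins, 3 were called negative and 0 positive: Myh9, the non-muscle myosin heavy chain (−0.78 ± 0.16, corrected −0.34), Myo9b, a motor with a RhoGAP domain (−0.98 ± 0.25, corrected −0.58), and Myo18a (−0.53 ± 0.14, corrected −0.06). Their median moved from −0.39 to −0.06 with the correction. Of 31 kinesins, 1 was called, Kif21b (−0.72 ± 0.19, corrected −0.26), and the median was −0.17 (corrected −0.02). Of 29 semaphorins and plexins, the guidance ligands of growing axons and their receptors, 0 were called by edgeR or limma-voom and 3 by DESeq2, and 13 had an unadjusted p below 0.05, although 25 had a negative sign and the median was −0.41 (corrected −0.10). The smallest p there was that of Sema4c, whose interaction was −0.55 ± 0.16 (adjusted p = 0.0626; corrected −0.21). Myosins, plakins and semaphorins thus had medians that moved most of the way to that of all genes once GC content and length were taken into account.

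Collagens, the fibre and basement membrane proteins of the extracellular matrix, had the median farthest from 0 of the 55 lists. Of 40 collagens, 3 were called negative (7.5%, against 1.68% of all genes) and 0 positive. A negative sign was found in 36, and the median interaction was −0.85 (corrected −0.52). The F2 no-stress group was the highest of the 4 means in 29 of the 40 (35.1% of all genes) and F1 no-stress the lowest in 22 (21.8%). Col4a2, a chain of the basement membrane collagen IV, was at 42.95, 27.6, 28.8, 32.04 and 29.4 CPM in F1 no-stress, 43.7, 52.2, 45.7, 52.4 and 33.3 in F1 stress, 60.2, 103, 47.9, 57.9 and 64.2 in F2 no-stress and 27.5, 33.5, 38.1, 58.2 and 31.5 in F2 stress. Every F2 no-stress library was above every F1 no-stress library, and the lineages overlapped in both generations. The interaction was −1.32 ± 0.29 (adjusted p = 0.0314; corrected −0.79). Col27a1, a fibrillar collagen, and Col9a3, a chain of collagen IX, had interactions of −1.37 ± 0.32 and −0.84 ± 0.22, and −0.85 and −0.46 after the correction.

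Lamb2, the laminin beta-2 chain of basement membranes and synaptic clefts, was the only called gene of 34 laminins and integrins (2.94%, against 2.52% of all genes). Of the 34, 15 had a positive sign, and the median was −0.06 (corrected 0.04). Lamb2 was at 19.5, 17.4, 12.2, 16.9 and 13.5 CPM in F1 no-stress, 17.1, 20.04, 21.4, 21.9 and 17.6 in F1 stress, 28.3, 24.8, 26.8, 24.4 and 22.4 in F2 no-stress and 10.4, 14.96, 16.9, 16.1 and 19.9 in F2 stress. All F2 no-stress libraries exceeded the other 15, and the interaction was −0.996 ± 0.20 (adjusted p = 0.0309; corrected −0.55). The markers of mural, fibroblast and meningeal cells, which make much of this matrix, mostly had a negative sign. Of 16, 0 were called (3 at an unadjusted p below 0.05, 1 by DESeq2 and 0 by limma-voom), 14 had a negative sign, and the median was −0.38 (corrected −0.23). Their summed level ranged from 296 to 377 CPM in F1 no-stress, 309 to 416 in F1 stress, 336 to 749 in F2 no-stress and 267 to 523 in F2 stress. Its part in the collagen values was not tested. Of 16 markers in this list, Col1a1, itself a collagen gene, had the smallest p (−1.29 ± 0.44, adjusted p = 0.0982; corrected −0.85). The marker signs are therefore not fully separate from those of the collagens.

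Chromatin genes were called only on the negative side. Of 53 histone methylation enzymes, 5 were called negative (9.43%, against 1.68% of all genes) and 0 positive. A negative sign was found in 36, and in 8460 of the 16727 genes tested. The 3 with the smallest p were Kmt2d, which methylates histone H3 at enhancers, Dot1l, which methylates the nucleosome core, and Kdm6b, which removes the repressive mark on H3. Kmt2d was at 94.7, 77.1, 69.9, 82.7 and 78.5 CPM in F1 no-stress, 88.5, 101, 119.9, 115 and 74.5 in F1 stress, 122, 142, 82.4, 103 and 149.8 in F2 no-stress and 55.2, 75.1, 76.4, 101 and 69.2 in F2 stress. All 4 groups overlapped, and the interaction was −0.98 ± 0.24 (adjusted p = 0.0394; corrected −0.25). The interactions of Dot1l and Kdm6b were −1.18 ± 0.29 and −0.74 ± 0.19, and −0.75 and −0.23 after the correction. Of 31 histone acetylation enzymes, 3 were called negative and 0 positive, all deacetylases: Hdac5 (−0.71 ± 0.17, corrected −0.24), Hdac10 (−0.87 ± 0.22, corrected −0.59) and Sirt6 (−0.96 ± 0.25, corrected −0.66). Hdac5, a class II deacetylase that shuttles out of the nucleus on neuronal activity, was at 91.8, 80.5, 70.7, 92.6 and 69.5 CPM in F1 no-stress, 71.5, 88.5, 79.98, 80.7 and 92.8 in F1 stress, 126, 115, 115, 109 and 99.7 in F2 no-stress and 60.9, 63.6, 60.9, 71.4 and 95.2 in F2 stress. Its F2 no-stress libraries were all above the other 15. The F1 lineages were close, with a difference of 0.03, and the F2 lineage difference was −0.68. Both lists' medians, −0.15 and −0.14, came to −0.02 and −0.06 with the correction. Among 13 DNA methylation genes 0 were called by edgeR or limma-voom and 2 by DESeq2, with 5 at an unadjusted p below 0.05, and Dnmt1, the maintenance methyltransferase, had the smallest p (−0.41 ± 0.12, adjusted p = 0.0681; corrected −0.17).

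Genes of synaptic structure and activity supplied a few negative calls. Over all genes tested, 1.68% were called negative, and counts of 1 or 2 in lists of this size are a description only. Of 16 postsynaptic scaffolds, 2 were called negative, Shank1 and Dlgap4, both proteins of the excitatory postsynaptic density. Shank1 was at 213, 113, 147, 139 and 134 CPM in F1 no-stress, 186, 202, 155, 166 and 188 in F1 stress, 171, 282, 217, 249.7 and 202 in F2 no-stress and 111, 124, 127, 184 and 116 in F2 stress. The groups overlapped throughout, and its interaction of −1.03 ± 0.23 was −0.41 after the correction. The list's median turned from −0.17 to 0.13 with the correction, where that of all genes went from −0.01 to 0.06. Of 22 immediate early genes, whose transcription follows neuronal firing, only Junb was called (−1.33 ± 0.32, adjusted p = 0.0379; corrected −0.89), and the list's median turned from −0.14 to 0.15. Junb, a subunit of the AP-1 factor, was at 7.58, 6.997, 6.56, 9.09 and 5.20 CPM in F1 no-stress, 6.04, 8.46, 5.36, 7.51 and 10.4 in F1 stress, 18.1, 14.96, 22.1, 14.6 and 8.08 in F2 no-stress and 6.84, 6.27, 5.02, 6.12 and 8.61 in F2 stress. F2 no-stress held the highest values and overlapped each other group. Vgf, a secreted neuropeptide precursor induced by neurotrophins, was the only call among 11 granins and prohormone genes. Its interaction was −0.85 ± 0.20 (corrected −0.35), and the lineages were apart in F2, with 96.2, 119, 96.3, 93.3 and 84.1 CPM in no-stress and 47.8, 60.3, 61.9, 72.8 and 54.98 in stress. Unc13a, a priming factor of synaptic vesicles, was the only one of 35 release genes called (−0.52 ± 0.14, corrected −0.11).

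Further negative calls came from smaller families. Of 28 Notch pathway genes, 3 were called negative (10.7%, against 1.68% of all genes) and 0 positive. They were Rfng, a glycosyltransferase that modifies Notch, Numbl, a Notch antagonist, and Jag2, a ligand. The list's median was −0.13 (corrected −0.05). Rfng had means of 51.02 ± 1.91, 51.7 ± 1.82, 69.2 ± 4.21 and 51.9 ± 4.20 CPM, with all F2 no-stress libraries above the other 15. Its interaction of −0.43 ± 0.09 was −0.05 after the correction (adjusted p = 0.847). The 2 called of 16 peroxisomal fatty acid oxidation genes were the near-identical thiolase genes Acaa1a (−0.77 ± 0.14, corrected −0.52) and Acaa1b (−1.20 ± 0.27, corrected −0.89), between which the counting could divide reads, so they are uncertain as separate results. That list's median was −0.07 (corrected 0.02). The helicase list had 2 negative calls of 19, Recql4 and Ercc2, the helicase of transcription factor TFIIH and nucleotide excision repair (−0.54 ± 0.14, corrected −0.13), and a median of −0.15 (corrected −0.07). Other negative genes with small p included Gtpbp2, a factor that acts on stalled ribosomes (−0.80 ± 0.14, corrected −0.53), Obsl1, a cytoskeletal adaptor (−0.89 ± 0.16, corrected −0.33), Unc45a, a myosin chaperone (−0.78 ± 0.15, corrected −0.39), Mafg, a small Maf transcription factor (−0.69 ± 0.13, corrected −0.42), and Gigyf1, a translational repressor (−0.92 ± 0.17, corrected −0.48). In each of these 5, F2 no-stress was the highest group and stood alone, a shape that none kept after the correction. Gtpbp2, Unc45a, Mafg and Gigyf1 then divided crosswise, with F1 stress and F2 no-stress high. In Obsl1, F1 no-stress then stood alone as the lowest group.

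**Figure D3:**
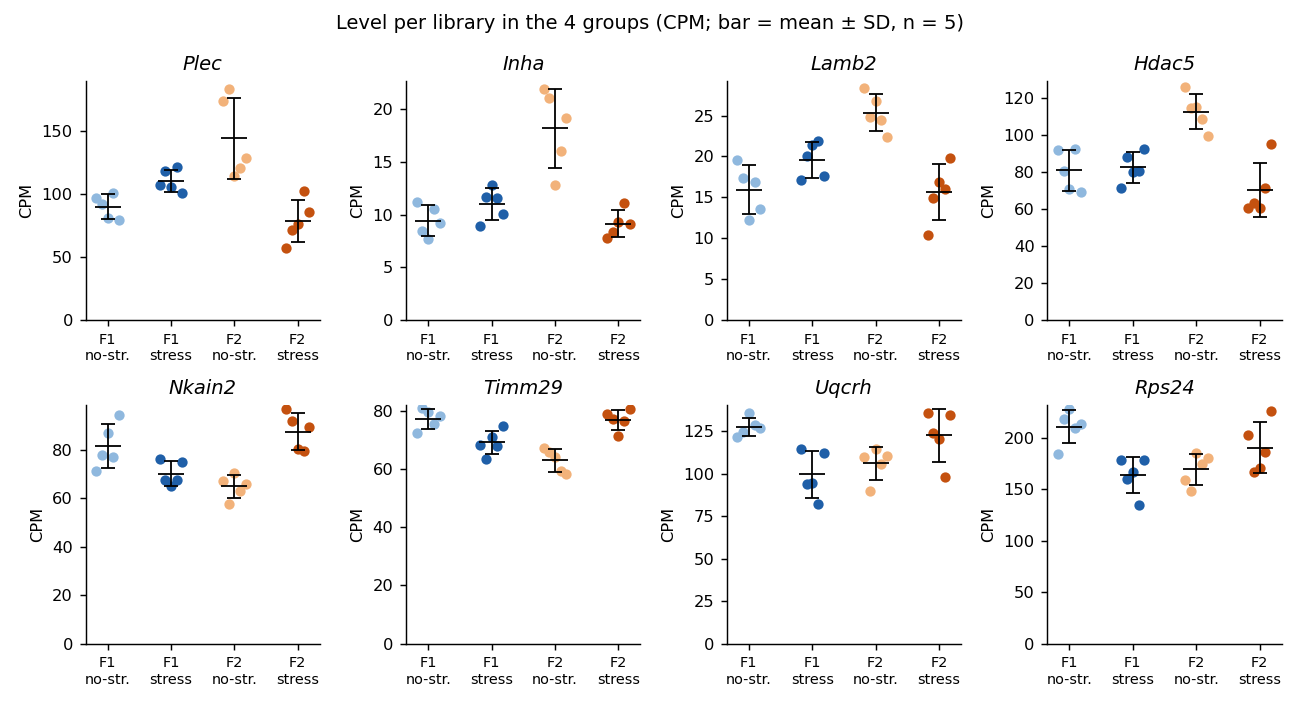
Level in CPM (y axis, from 0) of 8 called genes in each of 20 libraries (points), by group (x axis), with mean and SD of 5 mice. F2 no-stress stands highest in Plec, Inha, Lamb2 and Hdac5, while Nkain2, Timm29, Uqcrh and Rps24 are high in F1 no-stress and F2 stress.

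In 87 of the 140 genes with a positive interaction, the groups divided crosswise, with F1 no-stress and F2 stress high. Nkain2, which encodes a membrane protein that interacts with the sodium pump, had the smallest p (ENSMUSG00000069670, chromosome 10 from 31689310 to 32890462, minus strand, GRCm38). It was at 71.5, 77.8, 87.2, 76.98 and 94.6 CPM in F1 no-stress, 76.5, 67.4, 64.97, 67.4 and 74.9 in F1 stress, 67.4, 57.7, 70.6, 63.3 and 65.9 in F2 no-stress and 96.8, 92.1, 80.4, 79.7 and 89.3 in F2 stress. F2 stress was above F2 no-stress and F1 stress in every library, and the F1 lineages overlapped. The lineage difference was −0.22 in F1 and 0.43 in F2, and the interaction 0.65 ± 0.12 (adjusted p = 0.0309; corrected 0.59, adjusted p = 0.093).

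Tmem267, which encodes a transmembrane protein, was the only called positive gene past 2-fold, at 1.18 ± 0.23 (corrected 1.07). Its libraries were at 12.01, 20.9, 19.2, 19.5 and 14.8 CPM in F1 no-stress, 11.6, 7.82, 7.79, 11.7 and 10.6 in F1 stress, 11.96, 12.4, 9.64, 9.66 and 11.2 in F2 no-stress and 15.97, 15.5, 10.6, 13.02 and 15.9 in F2 stress. Here the F1 lineages were apart and the F2 lineages overlapped, with lineage differences of −0.81 and 0.37. Timm29, a subunit of the carrier translocase of the inner mitochondrial membrane, was at 72.2, 80.9, 79.4, 75.4 and 78.04 CPM in F1 no-stress, 68.4, 63.5, 70.9, 68.02 and 74.6 in F1 stress, 67.3, 65.9, 64.1, 59.2 and 58.2 in F2 no-stress and 78.7, 77.2, 71.2, 76.3 and 80.5 in F2 stress. F2 no-stress was below F1 no-stress and F2 stress without overlap, and the interaction of 0.45 ± 0.09 was 0.48 after the correction. Gtf3c6, a subunit of RNA polymerase III factor TFIIIC, had an interaction of 0.65 ± 0.12, Snrpd3, a core Sm protein of the spliceosome, 0.53 ± 0.11, and Epm2a, the glycogen phosphatase laforin, 0.49 ± 0.10. Their corrected values were 0.53, 0.48 and 0.47. Hnrnpa0, an AU-rich-element RNA-binding protein, had an interaction of 0.39 ± 0.09, and a larger one, 0.63, after the correction (adjusted p = 0.093). The remaining positive genes with the smallest p were Itfg1 (0.48 ± 0.10, corrected 0.51), Ssr3, of the translocon-associated complex (0.51 ± 0.10, corrected 0.36), Ift74, of intraflagellar transport (0.54 ± 0.11, corrected 0.35), Pdcd10, of vascular integrity (0.51 ± 0.11, corrected 0.45), Dynlt3, a dynein light chain (0.57 ± 0.12, corrected 0.42), and Cript, a binding partner of PSD-95 (0.55 ± 0.12, corrected 0.31).

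Genes of oxidative phosphorylation were called only with a positive sign. The called counts were 2 of 37 for complex I, 2 of 13 for complexes II and III, 1 of 15 for complex IV and 1 of 15 for the ATP synthase, with 0 negative calls. The share called positive was 0.837% over all genes tested, and counts of 1 or 2 in such short lists are a description only. Positive signs were found in 27 of 37, 9 of 13, 13 of 15 and 12 of 15 genes (49.4% of all genes). The medians were 0.22, 0.12, 0.29 and 0.29. With the correction the medians were 0.21, 0.19, 0.29 and 0.28. F1 stress was the lowest of the 4 means in 27, 9, 13 and 7 genes of these lists (22.2% of all genes). Uqcrh, the hinge protein of complex III, was at 122, 125, 136, 129 and 127 CPM in F1 no-stress, 115, 93.9, 94.6, 82.5 and 112 in F1 stress, 109.9, 89.6, 114, 106 and 110.5 in F2 no-stress and 136, 124, 121, 97.8 and 134 in F2 stress. F1 no-stress was above F1 stress and F2 no-stress in every library, and the F2 lineages overlapped. The interaction was 0.57 ± 0.14 (adjusted p = 0.0396; corrected 0.42, adjusted p = 0.144).

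Uqcrb, another complex III subunit, had an interaction of 0.65 ± 0.15, Ndufs4 and Ndufv2 of complex I 0.64 ± 0.16 and 0.49 ± 0.13, and Atp5c1, the gamma subunit of the ATP synthase, 0.48 ± 0.12. Their corrected values were 0.45, 0.43, 0.27 and 0.42. Cox5a of complex IV was at 73.3, 79.5, 87.5, 78.7 and 79.04 CPM in F1 no-stress, 66.5, 64.5, 61.04, 59.9 and 73.2 in F1 stress, 66.6, 66.4, 76.05, 66.7 and 68.1 in F2 no-stress and 89.5, 83.2, 82.9, 59.5 and 84.05 in F2 stress. F1 no-stress was above F1 stress throughout, and F2 stress replicate 14 was far below its group. The interaction of Cox5a was 0.51 ± 0.13 (corrected 0.29). The 15 genes encoded by the mitochondrial genome included 0 calls by edgeR, DESeq2 or limma-voom and 2 genes at an unadjusted p below 0.05, 14 positive signs and a median of 0.28 (corrected 0.15), and F1 stress was lowest in 13. The mitochondrial share of all counts was 8.49 ± 0.79% in F1 no-stress, 7.16 ± 0.74% in F1 stress, 7.97 ± 0.87% in F2 no-stress and 7.86 ± 1.08% in F2 stress (SD, n = 5). Its interaction of 1.21 percentage points gave p = 0.167 in an exact two-sided permutation test (adjusted over 3 library measures, 0.25).

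The protein synthesis machinery held the next group of positive calls. Of 82 cytosolic ribosomal protein genes, 5 were called positive (6.1%, against 0.837% of all genes) and 0 negative. A positive sign was found in 60 (49.4% of all genes), and the median was 0.16 (corrected 0.18). F1 no-stress was the highest mean in 51 (19.2% of all genes) and F1 stress the lowest in 47. Rps24, of the small subunit, was at 185, 218, 228, 209 and 214 CPM in F1 no-stress, 179, 160.5, 167, 135 and 178 in F1 stress, 159, 148, 185, 174 and 180 in F2 no-stress and 203, 167, 170.4, 187 and 226 in F2 stress. F1 no-stress exceeded F1 stress in every library, while F2 stress overlapped F2 no-stress. The interaction was 0.53 ± 0.14 (adjusted p = 0.0439), and those of Rpl39 and Rpl7, of the large subunit, were 0.62 ± 0.16 and 0.50 ± 0.13. The corrected values of the 3 genes were 0.42, 0.53 and 0.32. Ribosomal protein genes have many processed pseudogenes, to which the counting could lose reads. The median lineage difference of the list was −0.21 in F1 and −0.02 in F2, the F1 difference being the larger.

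Of 54 translation initiation factors, 5 were called positive (9.26%, against 0.837% of all genes) and 0 negative, with a median of 0.14 (corrected 0.20). Here F2 no-stress was the lowest mean in 28 genes (31.4% of all genes), and the median lineage differences were −0.06 in F1 and 0.12 in F2. Eif3e, a subunit of the eIF3 scaffold, was at 58.2, 76.4, 87.9, 68.7 and 75.8 CPM in F1 no-stress, 71.99, 60.8, 59.9, 56.4 and 69.04 in F1 stress, 53.5, 57.3, 61.8, 61.2 and 53.7 in F2 no-stress and 77.4, 71.1, 74.5, 70.3 and 75.9 in F2 stress. F2 stress was above F2 no-stress without overlap. The interactions of Eif3e, Eif2a and Eif3m were 0.57 ± 0.13, 0.46 ± 0.11 and 0.43 ± 0.11, and 0.56, 0.33 and 0.27 after the correction. Of 78 mitochondrial ribosomal protein genes, only Mrps18c was called (0.66 ± 0.17, corrected 0.45), a share of 1.28%. Over all genes tested, 0.837% were called positive and 2.52% in either direction, so 1 call in this list is a description only. A positive sign was found in 60 (49.4% of all genes).

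The proteasome degrades proteins tagged with ubiquitin. Of 46 proteasome genes, 3 were called positive (6.52%, against 0.837% of all genes) and 0 negative. A positive sign was found in 37 (49.4% of all genes), and the median was 0.23 (corrected 0.18). F2 no-stress was the lowest mean in 23 (31.4% of all genes) and F2 stress the highest in 23 (24.6%). Psma2, an alpha ring subunit, was at 70.1, 78.9, 91, 78.3 and 79.3 CPM in F1 no-stress, 78.6, 69.8, 73.4, 63.9 and 77.8 in F1 stress, 57.9, 58.7, 70.2, 66.01 and 59.4 in F2 no-stress and 97.7, 77.4, 83.05, 76.7 and 76.95 in F2 stress. The lineages were apart in F2 and overlapped in F1, and the interaction was 0.53 ± 0.12 (corrected 0.39). Psma6 and Psmb7 had interactions of 0.47 ± 0.12 and 0.44 ± 0.12, and 0.31 and 0.29 after the correction. Of 61 heat shock proteins and co-chaperones, 4 were called positive (6.56%) and 0 negative, with a median of 0.17 (corrected 0.13). They included Dnaja2, a cytosolic co-chaperone of Hsp70 (0.43 ± 0.10, corrected 0.26), and Dnajb9 and Dnajc10 of the endoplasmic reticulum (0.50 ± 0.13 and 0.36 ± 0.10, corrected 0.32 and 0.28). The general transcription lists added Gtf2h1, a TFIIH subunit (0.50 ± 0.12, corrected 0.37). Of 364 zinc finger genes of the Zfp series, 2 were called positive, Zfp706 and Zfp748, and 1 negative, Zfp335, a share of 0.824% against 2.52% of all genes tested.

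**Figure D4:**
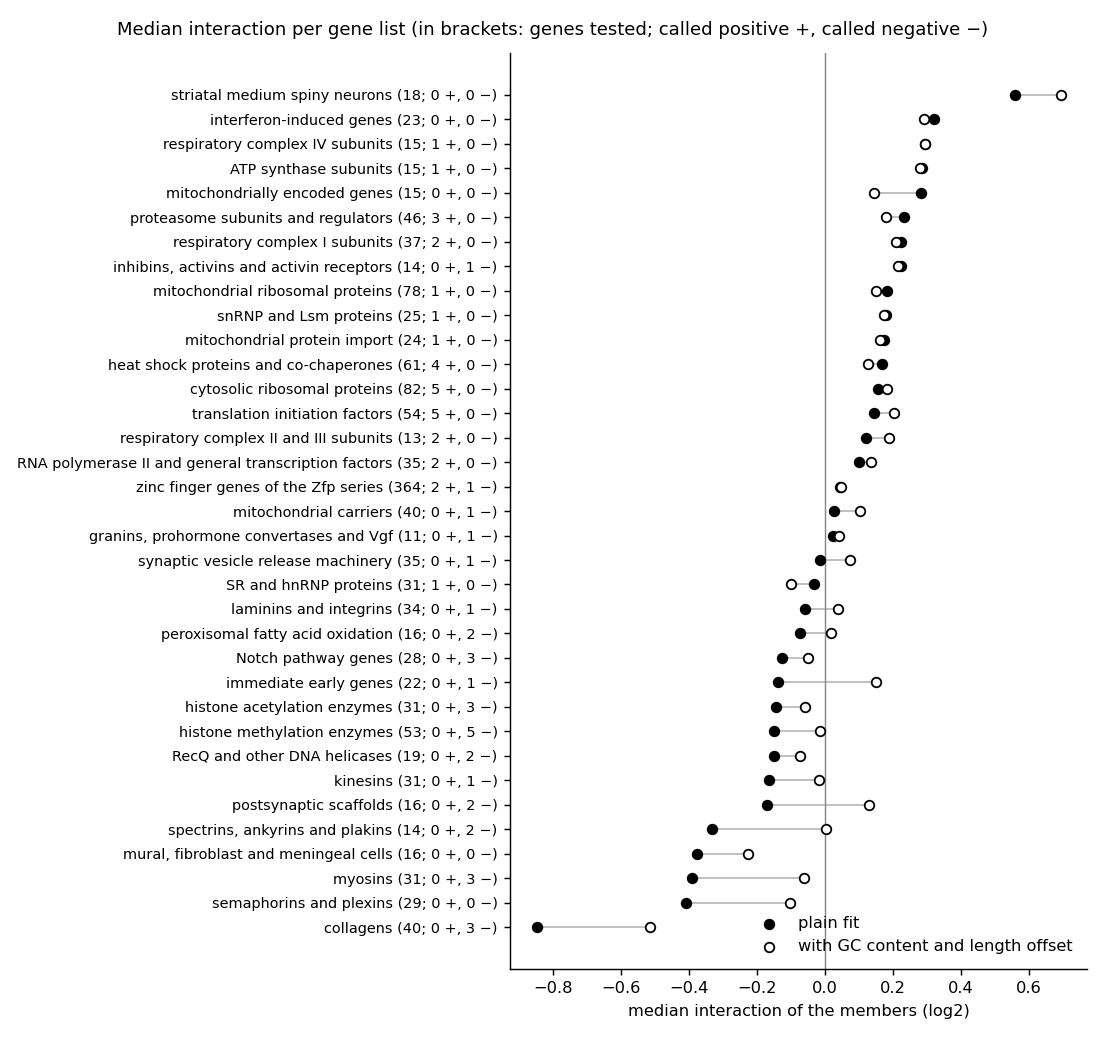
Median interaction (x axis, log2) of the gene lists with at least 10 genes tested and either a called gene or a median of at least 0.25 in size (y axis, with genes tested and called in brackets), from the plain fit (filled) and after the GC content and length correction (open). Collagens lie at −0.85 and −0.52 and complex IV at 0.29 and 0.29, while spectrins, ankyrins and plakins move from −0.33 to 0.00.

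Genes usually linked to stress did not pass the test. Of 14 stress axis genes, 0 were called by edgeR, DESeq2 or limma-voom and 3 had an unadjusted p below 0.05. The list had 7 signs in each direction. Its median was −0.03, and 0.06 with the correction, where all genes had −0.01 and 0.06. Of 19 glucocorticoid-induced genes, 0 were called by edgeR or limma-voom, 1 by DESeq2, and 5 had an unadjusted p below 0.05. Among all genes tested, 2.52% were called by edgeR and 21.2% had an unadjusted p below 0.05. Nr3c1, the glucocorticoid receptor, was at 89.9, 105, 113, 115 and 124 CPM in F1 no-stress, 124, 104, 102, 107 and 95.4 in F1 stress, 94.5, 83.03, 87.4, 89.3 and 79.3 in F2 no-stress and 106, 125, 90.9, 109 and 106 in F2 stress. F2 no-stress was the lowest mean, and both pairs of lineages overlapped. The interaction of Nr3c1 was 0.35 ± 0.13 (adjusted p = 0.13). That of Fkbp5, the co-chaperone of the receptor, was −0.10 ± 0.17 (adjusted p = 0.78), and that of Crh, the corticotropin-releasing hormone, −0.17 ± 0.38 (adjusted p = 0.849). Oxtr, the oxytocin receptor, had 0.29 ± 0.35 (adjusted p = 0.679), and Bdnf, a neurotrophin, 0.06 ± 0.73 (adjusted p = 0.973). The SE of Bdnf leaves a wide range of differences in either direction, and its libraries ran from 1.80 to 22.7 CPM.

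Receptors and channels were likewise without calls in edgeR and limma-voom: 0 of 24 glutamate receptor subunits, 0 of 16 GABA receptor subunits, 0 of 75 potassium channel genes and 0 of 37 sodium and calcium channel genes. An unadjusted p below 0.05 was found in 3, 1, 7 and 7 of them, and DESeq2 called 0, 0, 0 and 3. Over all genes tested, edgeR called 2.52%, and 21.2% had an unadjusted p below 0.05. At that called share, lists of this size hold few calls or none. GABA receptor subunits had F2 no-stress as the lowest mean in 14 of 16 and a median interaction of 0.15 (corrected 0.18). Also without calls were the imprinted genes (0 of 42), the core clock genes (0 of 19), the clustered protocadherins (0 of 57), the sterol and fatty acid synthesis genes (0 of 29) and the interferon-induced genes (0 of 23, median 0.32, corrected 0.29). An unadjusted p below 0.05 was found in 3, 4, 0, 5 and 4 genes of these lists, and DESeq2 called 1 imprinted gene and 0 in the other lists. Mirg, a noncoding transcript of the imprinted Dlk1-Dio3 region, came closest of the imprinted genes, at −1.41 ± 0.45 (adjusted p = 0.0816).

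Of 161 genes in the 11 lists of cell type markers, 0 were called by edgeR or limma-voom and 2 by DESeq2. An unadjusted p below 0.05 was found in 13 (8.07%), against 21.2% of all genes tested, of which edgeR called 2.52%. Striatal medium spiny neuron markers had a median interaction of 0.56 (corrected 0.70), 17 of 18 with a positive sign, and F1 no-stress was the highest mean in 16. Their summed level ranged from 2568 to 9264 CPM in F1 no-stress, 1955 to 5318 in F1 stress, 2652 to 9475 in F2 no-stress and 1080 to 9928 in F2 stress. The groups overlapped. Microglia markers had a median of 0.19 (corrected 0.26), with F1 stress the lowest mean in 15 of 19 rows. Whether these contents play a part in the calls was not tested. With the main component of the cell type scores in the fit, 636 genes were called. The scores were centred within each group first, so that fit could not remove a difference in cell content between groups. With replicates 14 (F2 stress) and 20 (F2 no-stress) left out, 1657 genes were called, 670 positive and 987 negative.

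The last measurements concern the libraries. A library's GC trend was taken as its median log2 deviation, from the mean of all libraries, in the tenth of genes with the highest GC content minus that in the tenth with the lowest. It was −0.07 ± 0.23 in F1 no-stress, −0.07 ± 0.14 in F1 stress, 0.34 ± 0.27 in F2 no-stress and −0.19 ± 0.26 in F2 stress (SD, n = 5). F2 no-stress was thus the group with the highest mean trend, and it stood alone as the highest group in 209 of the 281 negative genes, and its libraries ranged from −0.10 to 0.61. The interaction of the trend was −0.53, with p = 0.0415 in the exact two-sided permutation test and 0.125 when adjusted over 3 library measures. Across the 10 bins of GC content, the median interaction of the genes went from 0.17 in the lowest bin to −0.40 in the highest. Of the 279 negative calls with a known GC content, 221 lay in the top 2 bins, with medians of −0.24 and −0.40. Across genes, which are not independent replicates, Spearman's rho of interaction and GC content was −0.43. After the correction the shape of the 4 means also moved: F2 no-stress stood alone in 151 of the 421 genes (26.3% of all genes) and the crosswise division held in 180 (14.2%). A GC trend of library origin and a true change in GC-rich genes cannot be told apart here.

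**Figure D5:**
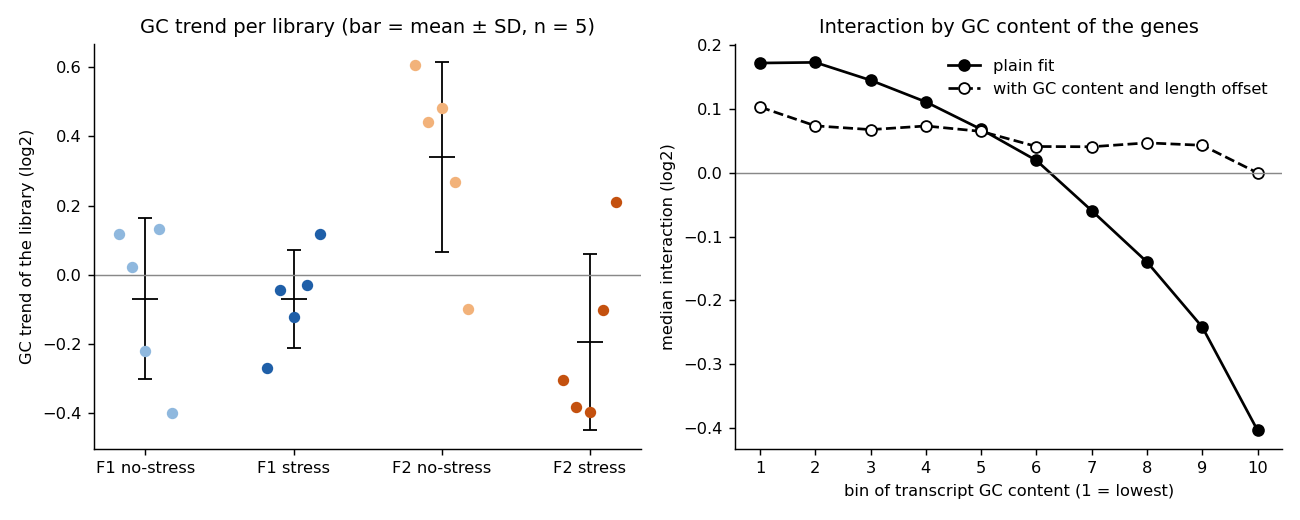
Left, GC trend of each library (points, log2) by group, with mean and SD of 5 mice. Right, median interaction of the genes (log2) in 10 bins of transcript GC content, which falls from 0.17 to −0.40 in the plain fit (filled) and lies between 0.10 and 0.00 after the correction (open).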

How the data were processed

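The deposited table holds whole-number counts per Ensembl gene for 20 libraries made with a stranded poly-A kit, per the labels. The submitters' processing notes name STAR 2.5.3a as the aligner and GRCm38 as the build. For the counting tool, its annotation and the step behind the nearly equal totals, nothing is given in the sources used here. Of 29671 genes, 16727 passed filterByExpr. They were fitted with edgeR 4.0.16 (quasi-likelihood test, robust, TMM factors 0.956 to 1.04, 1 mean per group) in R 4.3.3, and p-values were adjusted by Benjamini-Hochberg over all genes tested. The biological coefficient of variation was 18.1%. Replicates are separate mice. Log2 CPM used a prior count of 2. The correction added each library's spline trend (5 degrees of freedom) with GC content and transcript length, known for 16692 genes (GENCODE M21 models), as an offset. Named genes were the 12 positive and 12 negative calls with the smallest p and a mean of at least 1 CPM, up to 3 calls per list (or the member with the smallest p), and Crh, Nr3c1, Fkbp5, Bdnf and Oxtr. Genes with clone-type names (18 of the calls) were passed over, and 2 genes that this rule names are not reported here. The contrast, the 55 lists and the tests were chosen with earlier results of these data known. Alternatives used DESeq2 1.42.0, limma 3.58.1 and sva 3.50.0. Beforehand, the plain edgeR fit and the fit with the offset were run on simulated counts, and the DESeq2, limma and sva alternatives were not. In simulated counts with the libraries' own trends, 100 genes were changed 1.5-fold and 100 were changed 2-fold, in F2 stress only. The plain fit called 75 of the changed genes with the right sign and 27 unchanged genes, and the offset fit 79 and 4. Of the genes changed 1.5-fold, the plain fit called 24 and the offset fit 21. The simulated trends had the form that the offset removes, so its fewer calls of unchanged genes were built in. Rows that share a symbol (25 symbols) were kept separate by identifier.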

Additional observations from a re-analysis of the deposited data

Results flagged for a closer look

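The lineage difference was called as unequal between generations in 421 genes (edgeR quasi-likelihood test of the interaction, adjusted p below 0.05), by the contrast described above. The interaction of the libraries' GC trend was −0.53 on the log2 scale (exact permutation p = 0.0415). It did not pass when adjusted over 3 library measures (0.125), and with 1 library left out the p reached 0.0805.

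Among the named genes and library measures, 424 groups of 5 were examined by Dixon's criterion for a library far from the rest of its group, and 25 (5.90%) had one. The critical value of that criterion is set so that chance flags about 1 in 20 groups. F2 stress replicate 14 supplied 7 of them and F1 no-stress replicate 6 supplied 4. F2 stress replicate 14 was high in Zfr2 (39.3 CPM, others at most 29.2), Shank1 (184, others at most 127), Hdac10 (9.36, others at most 5.92), Dnmt1 (55.4, others at most 43.9), Col1a1 (6.40, others at most 2.87) and Oxtr (34.1, others at most 17.6), and low in Cox5a (59.5, others at least 82.9). F1 no-stress replicate 6 was high in Col4a2 (42.9 CPM, others at most 32.0) and Col27a1 (8.29, others at most 5.69), and low in Uqcrb (46.6, others at least 55.3) and mt-Nd3 (539, others at least 668). In each called gene of these 2 sets, the library lay toward the level that reduces the interaction.

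Single libraries stood apart as follows, in CPM. F1 stress replicate 1 was high in Recql4 (2.19) and Gtf3c6 (22.3), F1 stress replicate 2 in Cry1 (17.8) and F1 stress replicate 5 in Tm7sf2 (19.7). F1 no-stress replicate 9 was high in Grin1 (342). F2 no-stress replicate 16 was low in Ift74 (13), replicate 17 high in Numbl (93.4) and Egfl7 (24.4), replicate 18 high in Cox5a (76.1) and Psmb7 (78.6), and replicate 20 low in Dnaja2 (134). F2 stress replicate 11 was high in Itfg1 (332) and Psmb7 (104), and replicate 13 in Slc1a3 (939).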

How the results depend on the processing

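Each alternative below was planned except where stated. The 421 called genes (140 positive, 281 negative) became 0 (0 and 0) with the GC content and length offset, with the GC content offset, and with a 1.2-fold minimum, where 2499, 2703 and 1779 genes had an unadjusted p below 0.05. They became 1240 (581 and 659) with DESeq2, 2421 (1092 and 1329) with limma-voom and library weights, 100 (13 and 87) without a low-count filter, 1359 (580 and 779) at an adjusted p below 0.1 and 1657 (670 and 987) without replicates 14 (F2 stress) and 20 (F2 no-stress). With 1 cell type component, centred within each group, 636 were called, 426 of them negative. With library totals as the scaling 70 were positive. In these cases the cause was not tested, beyond the stricter or looser threshold or the fewer samples that the alternative itself brings.

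With 1 library left out, the calls ranged from 0 to 1509 (positive 0 to 617, negative 0 to 892). The count was 0 without F1 stress replicates 2, 3 or 4, F1 no-stress replicates 7, 8 or 10, F2 stress replicates 11, 12 or 13, or F2 no-stress replicates 16 or 17, where the smallest adjusted p lay between 0.0577 and 0.0722. It was 871 without F1 no-stress replicate 6, 791 without F2 no-stress replicate 18 and 1509 without F2 stress replicate 14. With the GC content and length offset and 1 library left out, an alternative chosen after seeing the data, the count was 0 in 18 of 20 cases, 33 without F1 no-stress replicate 6 and 255 without F2 stress replicate 14. F2 no-stress stood alone in 151 called genes, in place of 256, after the trends were taken from the log2 CPM. The library GC trend of −0.53 ranged from −0.64 to −0.45 with 1 library left out, with an exact permutation p from 0.0225 to 0.0805, and as a slope it was −0.24 per 10 percentage points of GC content (exact permutation p = 0.0509). The length trend ranged from −0.21 to −0.06 and the mitochondrial share from 0.80 to 1.55 percentage points.

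Of 103 named genes, the 74 called ones kept their sign under every alternative run, each on the same libraries that picked them or on most of those. The sign reversed in 17 cases among the 29 others. Of those 29 genes, 16 passed the threshold under at least 1 alternative. With the GC content and length offset, Cacna1a was 0.0566, Grin1 0.0053 and Bdnf −0.11, and with the GC content offset Bdnf was −0.11. Ido1 was −0.14 with 1 surrogate variable. With library weights Oxtr was −0.0422 and Bdnf −0.000302. Without replicates 14 and 20, Oxtr was −0.10, Crh 0.11 and Bdnf −0.22. With 1 library left out, Oxtr lay between −0.0403 and 0.457, Crh between −0.393 and 0.0148, and Bdnf between −0.279 and 0.368. No paired analysis was possible because every mouse has its own replicate number. The totals as deposited do not give the depth of each library, so depth as a limit cannot be judged from them.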
